A study of Homo sapiens with 6 samples.

Results

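The small leucine-rich proteoglycans (SLRPs) are a family of secreted matrix proteins. The 10 genes BGN, DCN, ASPN, FMOD, LUM, PRELP, KERA, OMD, EPYC and OGN were followed here among 17687 genes measured on Clariom S human arrays, on which each of the 10 had 1 probe set. The labels give A431, a human epidermoid carcinoma cell line, as the source of the RNA of 3 CD109-KO clones (26, 32 and 180) and 3 parental A431 samples (5, 2 and 6), with 1 array each. CD109 is a GPI-anchored membrane protein and TGF-β co-receptor, and each clone grew from a single CD109-negative cell sorted after transfection of a plasmid with Cas9, GFP and a guide to exon 1 or exon 2. Neither group was given a drug, and both were grown in complete medium. Nothing in the labels ties the parental numbers to cultures of their own, and the errors cover the spread between these samples, which may be technical. The genes were selected on family membership with the difference between CD109-KO and parental cells already known, so their values in that contrast are a description and carry no p. What was asked is how each member of the family stood in CD109-KO cells against parental cells, gene by gene.

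SLRPs share a core protein built of leucine-rich repeats that bends into a curved shape and binds collagen fibrils, and they set how fibrils assemble and how thick they grow. Class I members (biglycan, decorin and asporin) carry chondroitin or dermatan sulfate chains, except asporin. Several class II members carry keratan sulfate or sulfated tyrosines, and class III members include epiphycan and osteoglycin. They are best known as products of fibroblasts, chondrocytes, osteoblasts and corneal keratocytes, and several also bind TGF-β or cell surface receptors. In skin they are mostly made by dermal fibroblasts rather than by the epidermal cells from which A431 derives.

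CD109 itself, the targeted gene, had log2 signals of 3.64, 3.45 and 3.62 in clones 26, 32 and 180, against 7.57, 7.75 and 8.13 for parental samples 5, 2 and 6, a fall to under background in the clones (adjusted p = 1.09e-07 from limma). Background of an array was set at the 95th percentile over olfactory receptor genes, which belong to sensory neurons of the nose, and was 5.51 to 5.71 on CD109-KO arrays and 4.07 to 4.20 on parental arrays. The median of 36 genes needed by every human cell was 6.38 to 6.47 on CD109-KO arrays and 8.38 to 8.88 on parental arrays, and 44.3% to 49.0% of genes lay above background against 68.4% to 69.5%. A431 cells are known for a very high level of EGFR, the receptor for epidermal growth factor, which had log2 signals of 11.3 to 11.6 in parental samples and lay above background in 1 of 3 clones. The epithelial markers EPCAM and CDH1 (E-cadherin) lay under background on all 3 CD109-KO arrays and above it on all 3 parental arrays. KRT5, another epithelial marker, was lower in the clones but stayed above background there. Its log2 signals were 8.20, 8.07 and 8.13 in clones 26, 32 and 180, against 11.7, 11.9 and 11.9 for parental samples 5, 2 and 6. These differences go with the clones as a group. Whether the RNA of the clones is of the labelled line was not tested, nor was the part of these differences in the values of the SLRP genes, and each difference below holds between the arrays as labelled.

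Upstream sequence was looked up for the members to show what lies before their starts, and 6 of the 10 genes matched an entry of the RefSeq promoter table (GRCh38.p14). DCN, LUM, KERA and OMD are named only. The 250 bases before the start are printed 5′ to 3′ on the strand of the gene for BGN, FMOD and PRELP, the 3 genes with an entry that lay above background on all CD109-KO arrays. They lie at chrX:153494730-153494979 (plus strand) for BGN, at chr1:203351123-203351372 (minus strand) for FMOD and at chr1:203475556-203475805 (plus strand) for PRELP. Capitals mark the letters of 3 motifs on either strand: the GC box (GGGCGG or CCGCCC), the SMAD-binding element (GTCTG or CAGAC) and the TATA box (TATAAA or TTTATA).
BGN: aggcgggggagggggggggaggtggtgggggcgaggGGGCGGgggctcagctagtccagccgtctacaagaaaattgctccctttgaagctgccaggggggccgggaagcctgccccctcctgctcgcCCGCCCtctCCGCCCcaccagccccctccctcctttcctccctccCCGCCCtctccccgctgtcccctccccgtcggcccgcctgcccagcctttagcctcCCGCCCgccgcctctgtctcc
FMOD: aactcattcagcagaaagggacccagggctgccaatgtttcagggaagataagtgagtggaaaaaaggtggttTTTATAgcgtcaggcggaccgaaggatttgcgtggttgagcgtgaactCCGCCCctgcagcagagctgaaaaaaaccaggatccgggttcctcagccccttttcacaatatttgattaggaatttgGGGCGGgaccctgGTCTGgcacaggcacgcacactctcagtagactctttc
PRELP: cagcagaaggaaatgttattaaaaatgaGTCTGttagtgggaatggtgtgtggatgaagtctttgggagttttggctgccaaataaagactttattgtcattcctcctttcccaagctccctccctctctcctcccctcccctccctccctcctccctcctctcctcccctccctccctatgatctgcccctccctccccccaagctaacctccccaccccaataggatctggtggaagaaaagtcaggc
The BGN window is rich in G and C, at 74% against a median of 58% over 35116 promoter windows, and holds 16 CpG pairs and 5 GC boxes. The GC box occurs in 42.6% of all windows and in BGN and FMOD among the members. The FMOD window has 2 GC boxes, 1 SMAD-binding element and 1 TATA box, with 51.6% G and C. The PRELP window has 52.8% G and C, 0 CpG pairs and 1 SMAD-binding element. GTCTG was found in 4 of the 6 genes (EPYC, FMOD, OGN and PRELP) and in 38.0% of all windows, and TATAAA in 3 of the 6 (EPYC, FMOD and OGN) and in 10.7% of all windows. OGN has 2 listed starts whose windows overlap, and the pair of motifs in both windows is the same stretch of sequence. These counts take either strand. On the strand of the gene, TATAAA began 162 and 85 bases before the start in EPYC. In FMOD and OGN the strand of the gene reads TTTATA. That stretch began 177 bases before the start in FMOD and 200 and 79 bases before the 2 starts in OGN. The E-box CAGGTG (17.5% of all windows) and the homeodomain core TAATTA (4.35%) were in 0 of the 6 genes. These letters do not show binding, and the motifs did not overlap in the windows printed.

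BGN encodes biglycan, a class I proteoglycan that binds collagen and, when released from matrix, acts on Toll-like receptors. Its log2 signals were 11.04, 11.26 and 11.40 in clones 26, 32 and 180, against 4.74, 6.14 and 4.33 for parental samples 5, 2 and 6. The groups lay far apart, and parental sample 2 stood above the other two. The means were 11.23 ± 0.18 (SD, n = 3) and 5.07 ± 0.95 (SD, n = 3), which gives a log2 difference of 6.17 (standard error 0.39), or 71.8-fold. BGN lay above background on all 6 arrays, but the highest parental value was the only one past the 99th percentile of the olfactory receptors, so that the parental level is near the limit of what the array can measure. The gene lies at chrX:153494980-153509546 of GRCh38.p14. In such bulk RNA, more cells that express BGN and more RNA per cell cannot be told apart.

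LUM encodes lumican, a class II keratan sulfate proteoglycan of the corneal stroma and other connective tissues, and was the 1 member with lower values in CD109-KO cells. Its log2 signals were 3.03, 3.43 and 3.03 in clones 26, 32 and 180, against 5.90, 6.37 and 6.36 for parental samples 5, 2 and 6. It lay above background on all 3 parental arrays and under it on all 3 CD109-KO arrays. The means were 3.16 ± 0.23 (SD, n = 3) and 6.21 ± 0.27 (SD, n = 3), with a log2 difference of -3.04 (standard error 0.24). Because the lower group was not above background, the fold is given as a bound, at least 1.53-fold lower, which sets the parental mean against the higher background of the CD109-KO arrays. The gene lies at chr12:91102629-91111494.

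FMOD encodes fibromodulin, a class II member that carries keratan sulfate and sulfated tyrosines and steers collagen cross-linking. Its log2 signals were 6.32, 6.67 and 6.55 in the clones, in the same order as above, and 4.13, 4.52 and 3.75 in the parental samples. The clones lay above background on all 3 arrays and the parental samples on 1 of 3. The means were 6.51 ± 0.17 (SD, n = 3) and 4.13 ± 0.38 (SD, n = 3), a log2 difference of 2.38 (standard error 0.25). The gene lies at chr1:203340628-203351122.

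DCN encodes decorin, the class I proteoglycan that decorates collagen fibrils and can bind TGF-β, EGFR and MET. Its log2 signals were 6.22, 6.36 and 6.21 in the clones and 4.97, 4.94 and 4.003 in the parental samples. The clones differed little among themselves, with a range of 0.15, and parental sample 6 was the lowest and the one that lay under background. The log2 difference was 1.62 (standard error 0.28) between means of 6.26 ± 0.08 and 4.64 ± 0.55 (SD, n = 3 each).

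PRELP encodes a class II protein with a basic end that binds heparin and heparan sulfate. Its log2 signals were 6.01, 5.67 and 5.85 in the clones and 3.88, 4.55 and 3.67 in the parental samples, with 3 arrays and 1 array above background. The log2 difference was 1.81 (standard error 0.27). The clones exceeded their background by little. On CD109-KO arrays neither PRELP nor DCN passed the 99th percentile of the olfactory receptors, while FMOD passed it in 2 clones and BGN in 3. On parental arrays DCN and BGN each passed it in 1 sample, and PRELP and FMOD in 0.

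The 5 other members, ASPN, KERA, OMD, EPYC and OGN, lay under background on all 6 arrays. Their values therefore do not show that any of these RNAs was present in either group, and their differences are differences between values under background.

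ASPN, asporin, an inhibitor of TGF-β signalling in cartilage, had log2 signals of 4.18, 2.97 and 4.12 in the clones and 1.59, 2.23 and 2.07 in the parental samples. OGN, osteoglycin or mimecan, had 4.71, 4.17 and 4.65 against 2.81, 2.40 and 2.67. EPYC, epiphycan of growth plate cartilage, had 3.33, 4.19 and 4.47 against 2.17, 2.95 and 2.62. In these 3 genes the lowest clone still lay above the highest parental sample. KERA, keratocan of the cornea, had log2 signals of 4.43, 4.24 and 5.08 in the clones and 3.07, 4.14 and 3.15 in the parental samples. OMD, osteomodulin of bone, had 2.70, 2.72 and 3.13 against 1.84, 2.06 and 1.69. For KERA the closest pair, clone 32 and parental sample 2, was 4.24 against 4.14, so the groups barely separated. The log2 differences were 1.79 for ASPN, 1.89 for OGN, 1.42 for EPYC, 1.13 for KERA and 0.99 for OMD, with standard errors of 0.23 to 0.33.

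**Figure D1:**
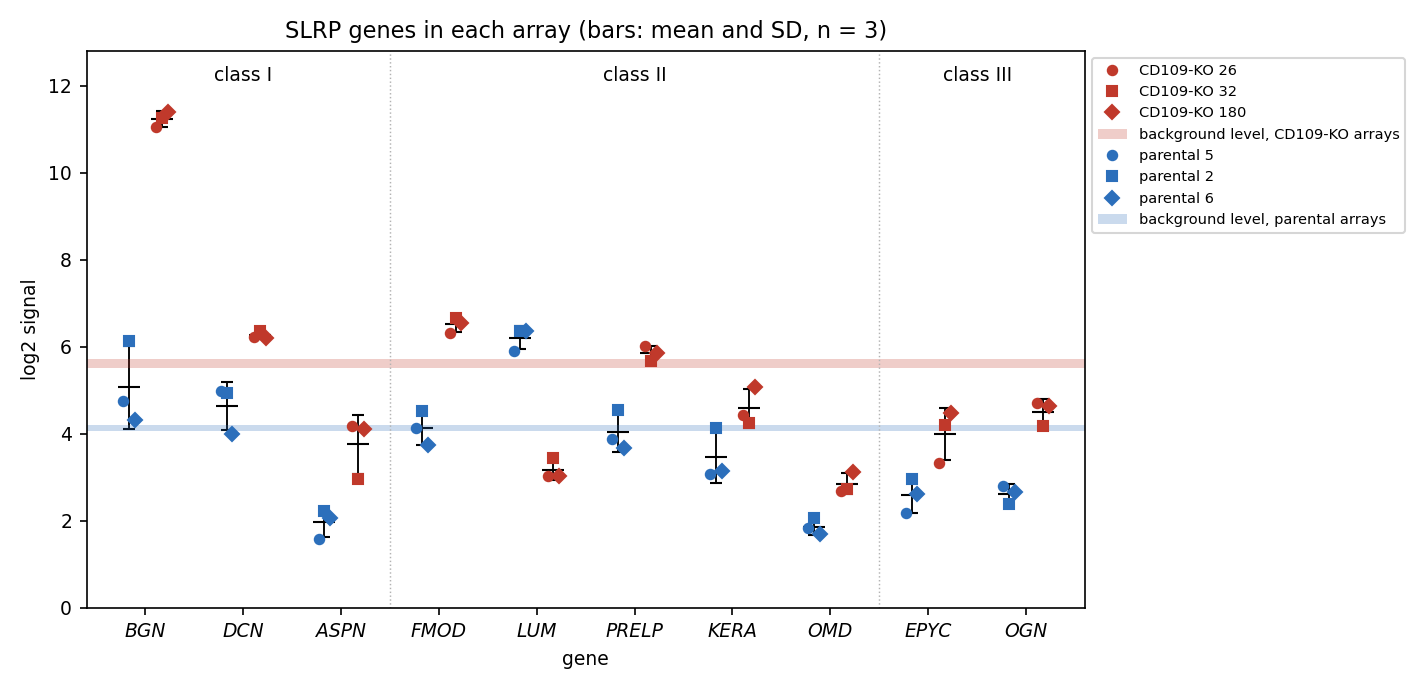
Log2 signal of the 10 SLRP genes on each of the 6 arrays, with 3 CD109-KO clones in red and 3 parental samples in blue, black bars for the mean and SD (n = 3), and bands for the range of the array background in each group. BGN lies at 11.04 to 11.40 in the clones, LUM falls under the background band of its group in the clones, and ASPN, KERA, OMD, EPYC and OGN lie under the background of their own arrays throughout.

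The groups did not overlap for any of the 10 members, 9 with higher and 1 with lower values in CD109-KO cells, while 48.9% of all 17687 genes were higher without overlap and 31.8% lower. By deposited signal, at least 2-fold higher were 8 members and at least 2-fold lower was 1. Of the 8, ASPN, KERA, EPYC and OGN lay under background on all 6 arrays. For LUM, the lower one, the bound set by background is only 1.53-fold. Over all genes, 36.4% were at least 2-fold higher with groups that did not overlap and 27.0% were lower in the same way, and since the members were selected with this contrast known, nothing is read from their count. OMD, with 1.98-fold, lay just under 2-fold. KERA, with 2.18-fold, lay just above it. The members' median log2 difference was 1.71, that of all genes was 0.51, and 9 of the 10 members lay above the latter.

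Olfactory receptor genes were themselves shifted between the groups, which bears on dim members. Over 348 of them the log2 difference had a median of 0.83 and ran from 0.09 at the 5th to 1.76 at the 95th percentile, and 137 were called higher and 0 lower. The differences of DCN, EPYC, KERA and OMD fell inside that range. ASPN, PRELP and OGN lay just past its upper end, at 1.79, 1.81 and 1.89. FMOD at 2.38 lay under the highest olfactory receptor, at 2.67. BGN at 6.17 lay far above every olfactory receptor, and LUM at -3.04 below every one, the lowest of which was -0.73. What part of the members' differences goes with this shift was not tested.

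The scaling of the arrays moved every member together. With each array centred on its olfactory receptors, all genes moved by -0.87, and 3 members were at least 2-fold higher without overlap (BGN at 5.30, FMOD at 1.51 and OGN at 1.02) and 1 lower (LUM at -3.91). Centring on 23 antigenomic background controls moved all genes by -1.21, left 2 higher (BGN at 4.96 and FMOD at 1.17) and 1 lower, and turned KERA to -0.081 and OMD to -0.22. Centring on the genes needed by every human cell moved all genes by 2.26 and gave 9 higher and 0 lower, with LUM at -0.78. BGN stayed positive and LUM negative under each of these scalings and after a repeated quantile normalization. Centring moves the median of all genes too, and by construction leaves the gap between a gene and that median unchanged. That gap was 5.66 for BGN, 1.87 for FMOD, 0.48 for OMD and -3.55 for LUM on the log2 scale.

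**Figure D2:**
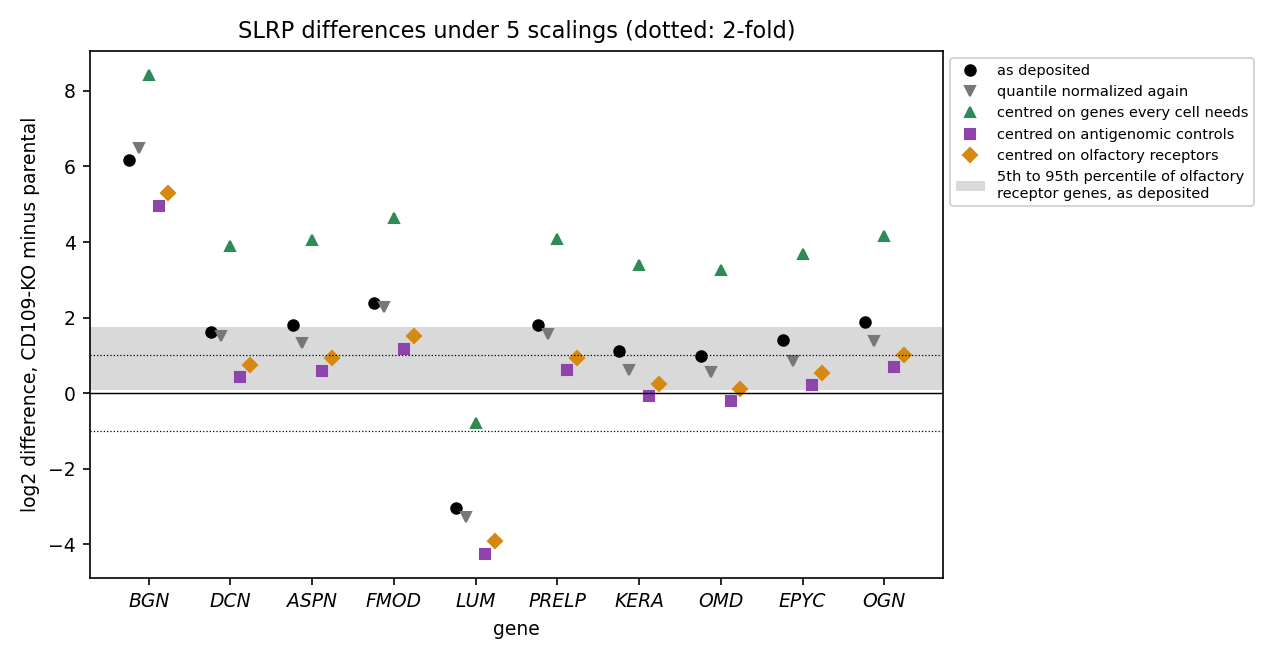
Log2 difference (CD109-KO minus parental) of the 10 SLRP genes as deposited and under 4 other scalings of the arrays, with the 5th to 95th percentile of olfactory receptor genes in grey and 2-fold as dotted lines. BGN stays at 4.96 or higher and LUM at -0.78 or lower under every scaling shown, whereas KERA and OMD turn from 1.13 and 0.99 to -0.081 and -0.22 when centred on antigenomic controls.

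Parental sample 2 had the highest parental value for 8 of the 10 members and parental sample 5 for the remaining DCN and OGN. Over all genes, sample 2 was the highest parental sample for 38.4% and sample 5 for 28.0%. The 8 include ASPN, KERA, OMD and EPYC, which lay under background on every array. The median log2 signal over the members was 4.33 in sample 2, against 3.48 in sample 5 and 3.41 in sample 6. Sample 2 also had the highest parental median of antigenomic background controls, 2.88 against 2.64 and 2.55. Its median of genes needed by every human cell was the lowest, 8.38 against 8.88 and 8.83. What part of the members' values goes with these array differences was not tested. Among the clones, clone 180 was highest for 4 genes and clones 26 and 32 for 3 each. The median SD of the members was 0.24 in the clones, as over all genes (0.24), and 0.39 in the parental samples, against 0.30 over all genes. The widest range among parental samples was that of BGN (1.81), and among the clones that of ASPN (1.21). Without parental sample 2, or without clone 26 or 32, 9 members were at least 2-fold higher, and without any 1 of the other 3 arrays 7 were, with LUM lower each time.

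Most members sit in 3 runs on the genome, which allows them to be set beside their neighbours in chromosomal order. FMOD and PRELP lie within 150.7 kb on chromosome 1, with OPTC next to PRELP. EPYC, KERA, LUM and DCN lie within 219.1 kb on chromosome 12, and OGN, OMD and ASPN within 99.2 kb on chromosome 9, with ECM2 next to ASPN. BGN lies apart on chromosome X. LUM is flanked by KERA and DCN, so its log2 difference of -3.04 stood between those of 1.13 and 1.62. Of the 24 neighbours measured, 7 rose, 6 fell and 11 were not called in limma (2-fold, adjusted p of 0.01), and 36.2% and 26.8% of all genes rose and fell by this rule. Centred on olfactory receptors, 3 neighbours rose and 9 fell.

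Next to BGN, ATP2B3 (a plasma membrane calcium pump) rose by a log2 difference of 1.75 (limma adjusted p = 2.73e-05) ZFP92 by 2.28 (adjusted p = 5.66e-06) and MAGEA1, a cancer-testis antigen, by 1.26, and CCNQ and DUSP9 were not called. Beyond DCN, the endosomal tether EEA1 fell to under background and was at least 3.43-fold lower (adjusted p = 1.19e-07), and NUDT4 fell by 4.09. Beside OGN, SPTLC1 fell by 2.99 on the log2 scale and lay above background in 1 of 3 clones, while IARS1 and NOL8 fell to under background in the clones and were at least 2.25-fold and at least 1.75-fold lower. On the FMOD side of the chromosome 1 run, MYBPH rose by 2.18, CHIT1 was at least 3.80-fold higher, and CHI3L1 rose by 1.29 with both groups under background. On the PRELP side, OPTC rose by 1.72, with 1 clone and 0 parental samples above background, and ATP2B4 fell by 2.51.

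**Figure D3:**
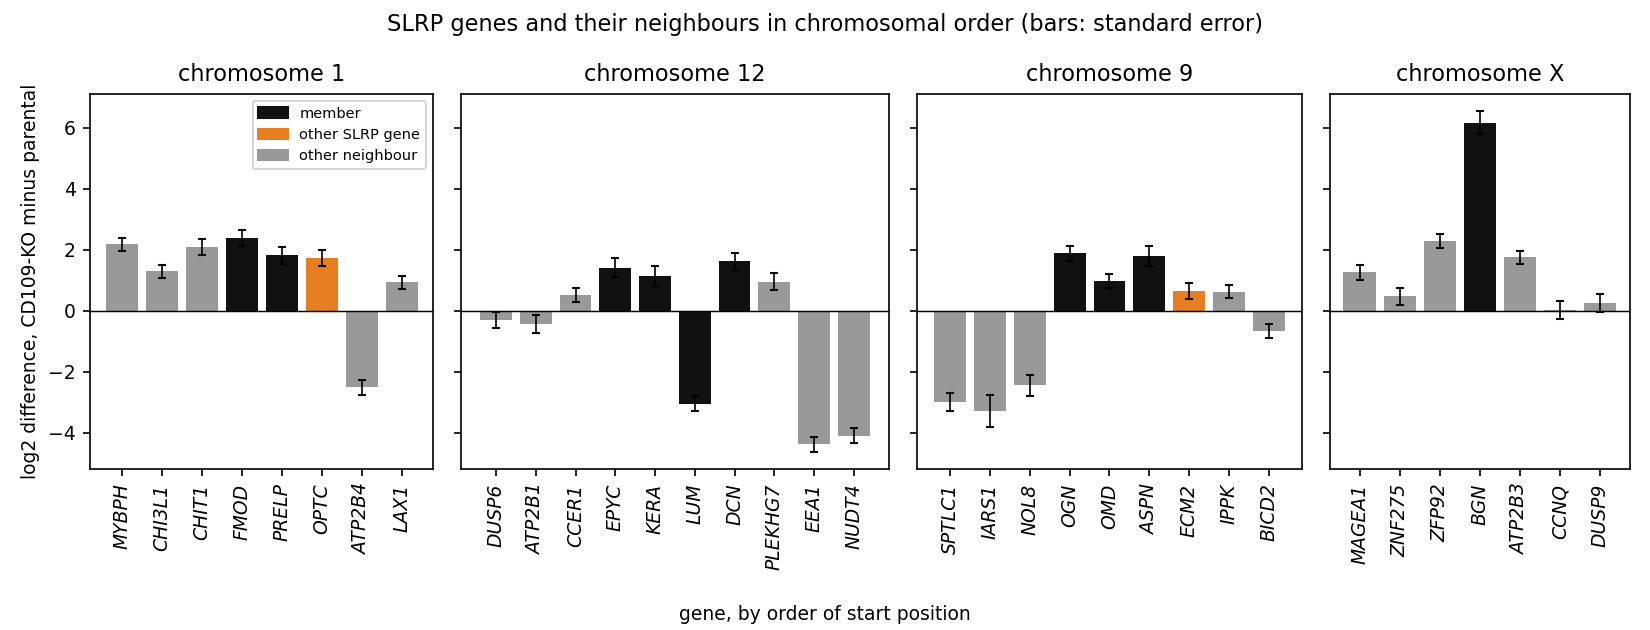
Log2 difference (CD109-KO minus parental) of the SLRP genes (black), other SLRP genes (orange) and nearest measured protein-coding neighbours (grey) in chromosomal order, with bars for the standard error of limma. BGN at 6.17 exceeds its neighbours, whose largest difference is 2.28, and LUM at -3.04 lies between KERA at 1.13 and DCN at 1.62, and centring on antigenomic controls turns KERA to -0.081 and OMD to -0.22.

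The 8 other genes of the wider SLRP family were tested with the limma fit over all genes, and 5 rose, 0 fell and 3 were not called, with a median log2 difference of 1.49 beside 0.51 for all genes. PODN (podocan) had means of 7.01 ± 0.28 and 4.58 ± 0.16 (SD, n = 3 each) in CD109-KO and parental cells, a rise of 2.43 on the log2 scale (adjusted p = 4.78e-06). NYX (nyctalopin of the retina) rose by 2.34 (adjusted p = 6.96e-06) and CHADL (chondroadherin-like) by 1.35. OPTC (opticin of the vitreous) and CHAD (chondroadherin of cartilage) rose by 1.72 and 1.64, but neither lay above background on all 3 arrays of a group. TSKU (Tsukushi), above background on all 6 arrays, had a log2 difference of -0.68 (adjusted p = 0.016) and did not pass. Centred on olfactory receptors, 2 rose and 1 fell.

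The enzymes that build SLRP side chains were read beside the all-gene shares given above (36.2% rose and 26.8% fell). Of 21 genes for chondroitin and dermatan sulfate, the chains of biglycan and decorin, 9 rose, 4 fell and 8 were not called, with 2 and 7 after centring on olfactory receptors. Among the 9 that rose, 6 lay above background on all 3 CD109-KO arrays. CHST14, which sulfates dermatan sulfate, rose by 2.50 on the log2 scale (adjusted p = 3.50e-06) and B3GAT3, which completes the linkage to the core protein, by 2.25. The chain polymerase CHSY1 fell to under background and was at least 1.91-fold lower (adjusted p = 0.000117), and the epimerase DSE had a log2 difference of 0.02. Of 9 genes for keratan sulfate, the chain of lumican, fibromodulin and keratocan, 6 rose, 2 fell and 1 was not called. Among the 6 that rose, 5 lay above background on all 3 CD109-KO arrays. The galactosyltransferase B4GALT4 was at least 4.45-fold lower (adjusted p = 3.21e-06) and the sulfotransferase CHST1 rose by 2.05 on the log2 scale. Of 2 tyrosine sulfotransferases, which modify fibromodulin, TPST2 rose by 1.27 and TPST1 was not called. Centred on olfactory receptors, 2 keratan sulfate genes rose and 2 fell, and 0 tyrosine sulfotransferases rose.

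Biglycan is made with a pro-domain that BMP1 and its tolloid relatives remove, and PCOLCE enhances the action of BMP1 on procollagen. PCOLCE had log2 means of 11.12 ± 0.07 and 6.60 ± 0.48 (SD, n = 3 each), a rise of 4.52 (adjusted p = 1.54e-07). TLL1, TLL2 and PCOLCE2 rose as well (PCOLCE2 not without clone 180), whereas BMP1, with a difference of 0.67 (adjusted p = 0.0138), did not pass. Of 11 proteases that can cut SLRP core proteins, 5 rose, 2 fell and 4 were not called, beside 36.2% and 26.8% of all genes that rose and fell. Among the 5 that rose, 4 lay above background on all 3 CD109-KO arrays. ADAMTS5 rose by 3.22 on the log2 scale (adjusted p = 2.73e-06), ADAMTS4 was at least 4.43-fold higher (adjusted p = 7.88e-07), and MMP14 was not called. The fallen proteases numbered 1 when any array other than parental sample 5 was left out. Centred on olfactory receptors, 2 of the pro-domain list rose, and of the degrading proteases 3 rose and 3 fell.

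Among the collagens that SLRPs bind, 11 of 12 rose and 0 fell, beside 36.2% and 26.8% of all genes. Their median log2 difference was 1.99, and 8 of the 11 that rose lay above background on all 3 CD109-KO arrays. COL1A2, a chain of collagen I and the list's largest difference, had means of 11.77 ± 0.15 and 6.57 ± 0.30 (SD, n = 3 each), a rise of 5.20 (adjusted p = 6.38e-08). COL2A1 rose by 3.04 and COL1A1 by 2.93, and COL12A1 was not called. Of 26 growth factors and receptors that SLRPs bind, 14 rose, 6 fell and 6 were not called. Of the 14 that rose, 9 lay above background on all 3 CD109-KO arrays. Among the 10 ligands 8 rose and 1 fell, and among the 16 receptors 6 rose, 5 fell and 5 were not called. EGFR and MET, which decorin can bind, were among the 6 genes that fell. The log2 difference of EGFR stood at -5.72 (limma adjusted p = 6.26e-08), and MET was at least 7.60-fold lower (adjusted p = 1.44e-07). LRP1, another receptor of the list, was not called, at -0.70 (adjusted p = 0.026). ITGA2, a subunit of the collagen receptor, was at least 4.37-fold lower, and CD44 fell by 3.24. With olfactory receptor centring 7 collagens rose and 0 fell, and 6 partners rose and 8 fell.

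Of 25 proteoglycans outside the family, 13 rose, 3 fell and 9 were not called, beside 36.2% and 26.8% of all genes that rose and fell. Only 4 of the 13 that rose lay above background on all 3 CD109-KO arrays. The median log2 difference was 1.02, and 6 rose and 5 fell after centring on olfactory receptors. The 3 that fell were SDC4 by 4.47 on the log2 scale (adjusted p = 2.00e-07), SDC1 by 3.24, and TGFBR3, at least 1.64-fold lower. Of 4 syndecans 1 rose and 2 fell, and of 6 glypicans 3 rose and 0 fell. ESM1, a secreted dermatan sulfate proteoglycan, rose by 3.07.

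**Figure D4:**
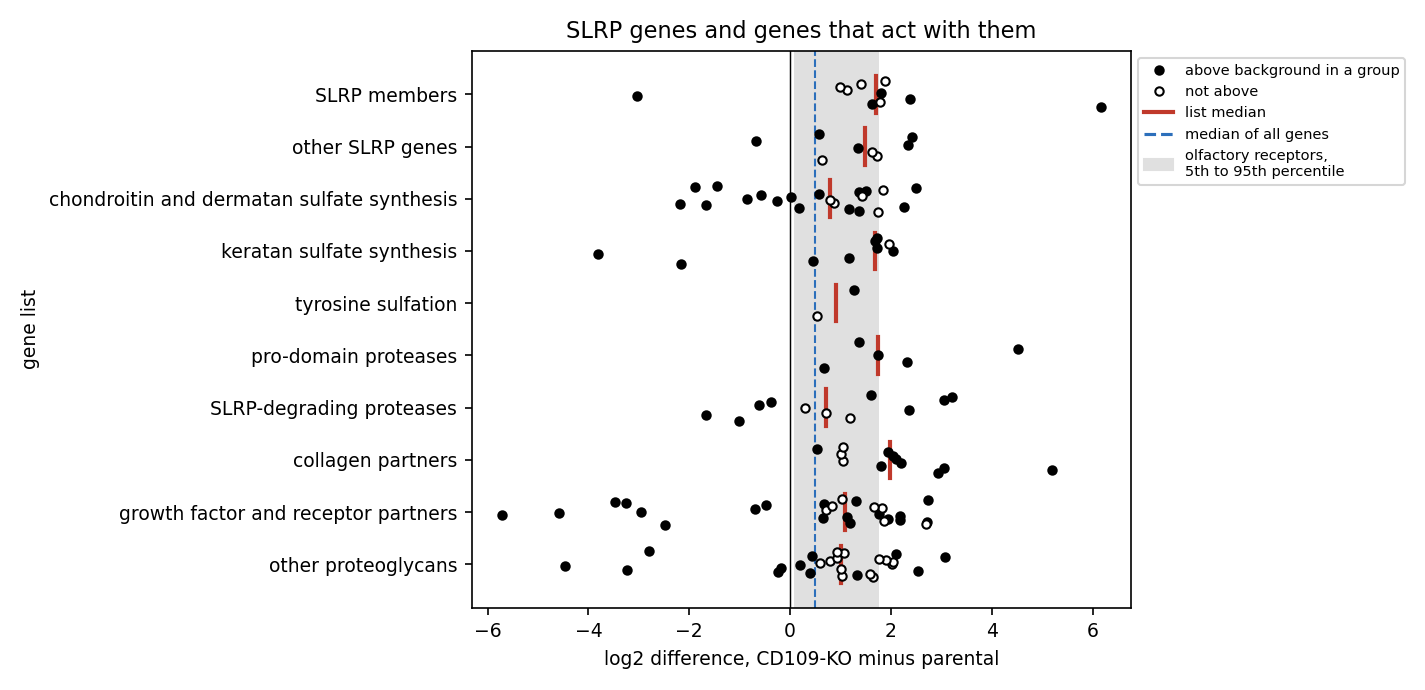
Log2 difference (CD109-KO minus parental) of each gene in the SLRP lists and the lists of genes that act with SLRPs, filled where the gene lay above background on all 3 arrays of a group, with list medians in red, the median of all genes (0.51) as a dashed line and the 5th to 95th percentile of olfactory receptor genes in grey. The SLRP members run from -3.04 (LUM) to 6.17 (BGN), and under centring on antigenomic controls KERA and OMD turn to -0.081 and -0.22.

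Markers of other cell types, some of them known to make SLRPs, were read beside the members and beside the 36.2% of all genes that rose. Signals under 5.51 on CD109-KO arrays or under 4.07 on parental arrays are under the background of every array of that group. Of 12 fibroblast markers, 10 rose and 1, FBLN1, fell, with a mean log2 signal over the list of 5.53 to 5.69 on CD109-KO arrays and 4.08 to 4.45 on parental arrays, which is close to the background of each group. Of the 10 that rose, 5 lay above background on all 3 CD109-KO arrays, and FAP lay under it on all 6 arrays. All 7 smooth muscle markers rose, from a mean of 5.04 to 5.54 on parental arrays to 7.41 to 7.47 on CD109-KO arrays, with DES (desmin) up by 3.71 on the log2 scale, and 6 lay above background on all CD109-KO arrays. Of 9 cartilage and tendon markers 4 rose and 0 fell, with means of 4.70 to 5.03 against 3.65 to 3.93, and of 6 corneal keratocyte markers 3 rose and 2 fell, with means of 6.17 to 6.29 against 5.98 to 6.04. Of 6 endothelial markers 4 rose and 0 fell (5.01 to 5.24 against 3.93 to 4.004), and of 5 blood cell markers 4 rose and 1, CD68, fell (5.53 to 5.54 against 4.97 to 5.54), with PTPRC under background on all 6 arrays. Above background on all 3 CD109-KO arrays were 2 of the risen cartilage and tendon markers, 2 of the keratocyte, 2 of the endothelial and 1 of the blood cell markers. All 6 epithelial markers measured fell, from means of 9.99 to 10.4 to means of 5.61 to 5.89. Of these, 2 stayed above background on all 3 CD109-KO arrays. Centred on olfactory receptors, 4 fibroblast, 4 smooth muscle, 0 cartilage and tendon, 1 keratocyte, 1 endothelial and 0 blood cell markers rose, and 6 epithelial markers fell. The part of any such cells in the SLRP values was not tested.

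For the 5 members above background on all 3 arrays of a group, the genes most like them were named by Pearson r over the 6 arrays, among 11948 genes above background on all 3 arrays of a group, as a description. For BGN they were PSENEN, KLF1 and FBXO28 (r of 0.999 or more), and for LUM they were TMEM50A, TMEM87B and SDC4. DCN was closest to FBRSL1, KIF1A and SLC12A5, FMOD to JAZF1, FBXO2 and HOMER3, and PRELP to PRR15, C1orf115 and PCK1. The 6 arrays fall into 2 groups, so that a gene that differs between the groups correlates with any other that does, and 25% to 34.2% of the genes compared reached an r of 0.9 with a given member.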

How the data were processed

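Expression was measured on 6 Clariom S arrays, 1 for each CD109-KO clone or parental A431 sample. The authors deposited log2 signals of 24351 probe sets, made with Gene Expression Console (background correction, normalization) and Transcriptome Analysis Console, which the submitters' processing notes name beside hg38, with the algorithm not given in the sources used here. Values were used as deposited. Of 21448 gene probe sets, 17709 have 1 symbol, 0 symbols had to be changed against RefSeq records of GRCh38.p14, and 2903 control probe sets were left out. For 20 genes with several probe sets the brightest stood for the gene.

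CD109-KO minus parental was fitted in limma 3.58.1 (R 4.3.3; lmFit, eBayes) with Benjamini-Hochberg adjustment over all gene probe sets. A gene was called, and rose or fell, where its deposited signal changed 2-fold with an adjusted p of 0.01 or less, above background or not. The script was tested on simulated data. Arrays give no depth, and 3 of them a group limit the precision. Where 1 group lay above background on all its arrays and the other on none, the fold is a lower bound: per array of the dim group the larger of its background and the gene's signal was taken, and their mean was subtracted from that of the bright group. Such a bound can be under 2-fold for a called gene. The members and gene lists were chosen with earlier results of these data known. Named genes were all members and other SLRP genes, of each list up to 4 called genes with the largest differences and up to 2 brightest uncalled ones, the called neighbours (the 3 nearest measured protein-coding genes on each side of a run), and the 3 genes most like a member. The uncalled neighbours CCNQ and DUSP9, and CD109, were chosen after their values were seen. Alternatives were the methods' t-test, a prior with trend and robust estimation, a repeated quantile normalization, other centrings, a filter on dim probe sets, other thresholds and leaving out each array. Promoter windows came from RefSeq, and protein sequences were not used here.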

Additional observations from a re-analysis of the deposited data

How the results depend on the processing

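Counts of called genes were recomputed under each alternative (an adjusted p of 0.05 with no minimum fold for all genes only), the members' differences under all but the prior and the t-test, and 56 named genes outside the members under every alternative that kept their probe set. The causes of the changes were not tested unless stated. No paired analysis was possible because CD109-KO clones and parental samples share no replicate number. Centring shifts every gene of an array by 1 amount, which by construction moves rises and falls in opposite senses. Centred on genes needed by every human cell, 13300 genes were called higher and 1148 lower, with 8 other SLRP genes higher, 17 chondroitin and dermatan sulfate genes higher and 0 lower, 1 keratan sulfate gene lower, 2 tyrosine sulfotransferases higher, 10 degrading proteases higher and 0 lower, 3 growth factor and receptor partners lower, 22 other proteoglycans higher and 1 lower, 18 neighbours higher and 2 lower, and 0 SLRP members lower. Centred on antigenomic controls, 553 genes were higher and 7504 lower, with 2 other SLRP genes higher and 1 lower. Under this centring 2 chondroitin and dermatan sulfate genes were higher and 8 lower, and 2 other proteoglycans were higher and 6 lower. It gave 0 keratan sulfate genes and 0 tyrosine sulfotransferases higher. It also gave 2 genes of the pro-domain list, 3 degrading proteases, 3 collagens, 3 partners, 1 neighbour and 2 SLRP members higher, and turned KERA to -0.081. Centring on olfactory receptors, chosen after seeing the data, gave 1609 genes higher, and for the lists and the members the counts stand in the report. Higher and lower were 2 and 1 other SLRP genes, 2 and 7 for chondroitin and dermatan sulfate, and 6 and 5 other proteoglycans. Counted as higher were 2 keratan sulfate genes, 0 tyrosine sulfotransferases, 2 genes of the pro-domain list and 3 degrading proteases. So were 7 collagens, 6 partners, 3 neighbours and 3 members. With dim probe sets filtered out, 3704 genes, 3 other SLRP genes, 9 partners, 5 other proteoglycans and 4 members were higher, since ASPN, KERA, OMD, EPYC and OGN were no longer tested. The methods' t-test called 3140 genes lower, 3 other SLRP genes higher, 2 chondroitin and dermatan sulfate genes lower, 0 degrading proteases lower, 7 collagens higher and 8 other proteoglycans higher. After a repeated quantile normalization 1 degrading protease was lower, and leaving out 1 array gave 1 to 2 (2 without parental sample 5, 1 without any other). Of 722 values of the 56 named genes, 666 kept their side of the threshold and their direction where called, 40 lost and 12 gained a call in the same direction and 4 reversed: centred on genes needed by every human cell, TSKU was 1.58, CHSY1 0.079 and MMP14 1.89, and centred on antigenomic controls DSE was -1.18. Members above background on all 3 arrays numbered 4 in the clones and 2 in the parental samples, against 1 and 1 at the 99th percentile of the olfactory receptors and 5 in the parental samples at the 90th.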
